A study of Mus musculus with 9 samples.

Results

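The cytosolic ribosomal protein genes were described across the lymphocytes of spleens from mice that carry the R594C mutation in IRE1, the endoplasmic reticulum stress sensor encoded by Ern1. They were chosen by symbol alone, as Rps or Rpl followed by a number and an optional a, x or l, together with Rplp0, Rplp1, Rplp2 and Rpsa. That gave 83 of the 55385 genes in the files, 32 with small subunit names and 51 with large subunit names. The pattern leaves out some genes that also encode ribosomal proteins, among them Rps3a1 and Fau, and it takes in copies of other members such as Rps27l, Rps4l and Rpl3l. Total splenocytes sorted with DAPI came from homozygous R594C/R594C mice (2 hashtag replicates), heterozygous R594C/+ mice (4 hashtag replicates) and WT mice (4 hashtag replicates). Cells were tagged with hashtag antibodies to CD45 and MHC class I, and their RNA was counted as unique molecular identifiers (UMIs) from 3′ droplet libraries. Each genotype was 1 droplet capture, so differences between genotypes cannot be told apart from those between captures or staining tubes. The sources used here do not give age, strain or sex, or say whether each hashtag marks 1 mouse. All p-values therefore reflect the spread among these hashtag replicates, which may be technical.

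In the cytosol the small ribosomal subunit reads the messenger RNA and the large subunit joins the amino acids. Most ribosomal proteins are held in a single copy per ribosome. The P-stalk, which recruits elongation factors, is made of Rplp0 and of dimers of Rplp1 and Rplp2, and these dimer proteins are the known exception. Ribosomal protein messages are among the most abundant in lymphocytes. They typically begin with a terminal oligopyrimidine tract, a C at the cap followed by a run of C and T, through which mTOR signalling and the RNA-binding protein LARP1 control their translation together.

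Promoter sequences in RefSeq (GRCm38.p6) were found for 61 of the 83 members. Runs of at least 7 C or T overlapping the 5 bases on either side of an annotated start were counted on the gene's strand. Such a run was found in 29 of these 61 genes (47.5%), against 15.7% of 26964 other genes with a start. For a gene with more than 1 annotated start, the longest run was taken. The windows below run from 10 bases before the start to 20 bases from it on, 5′ to 3′ on the gene's strand, with the longest pyrimidine run at the start in capitals. They are shown for some of the members followed below, between classes (Rps27 and Rps27l) or genotypes (Rpl38, Rps21, Rps28, Rpl35 and Rps10). Members followed below but not printed varied, with runs of 1 base in Rpl10, 2 in Rpl24, 3 in Rpl41 and 4 in Rplp0. Rpl27a had 20 and Rpl7a 21.
Rps27 (chr3:90213629-90213658, minus strand): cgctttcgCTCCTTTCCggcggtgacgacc
Rps27l (chr9:66946076-66946105, plus strand): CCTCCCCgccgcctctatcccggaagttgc
Rpl38 (chr11:114668570-114668599, plus strand): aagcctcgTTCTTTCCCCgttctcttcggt
Rps21 (chr2:180257369-180257398, plus strand): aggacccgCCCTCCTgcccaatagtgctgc
Rps28 (chr17:33824543-33824572, minus strand): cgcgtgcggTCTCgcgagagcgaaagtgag
Rpl35 (chr2:39005112-39005141, minus strand): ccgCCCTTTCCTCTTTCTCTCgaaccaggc
Rps10 (chr17:27635225-27635254, minus strand): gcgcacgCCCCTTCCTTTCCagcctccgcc
The run was 18 bases in Rpl35, 13 in Rps10, 10 in Rpl38, 9 in Rps27 and 7 in Rps21. In Rps27l the run of 9 bases began before the printed window, and in Rps28 the longest run at the start was 4 bases. Rps27l and Rps21 each had another annotated start, not printed, with a run of 4 bases. A match of letters at an annotated start is a description and no measurement of where transcription began.

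The captures held 74538447 UMIs in 17444 barcodes (R594C/R594C), 87953814 UMIs in 17980 barcodes (R594C/+) and 74546390 UMIs in 16027 barcodes (WT), with median UMIs per barcode of 3166, 3448.5 and 3483 in that order. After hashtag and quality filters 40969 cells were kept, 13954, 14774 and 12241 of them in the same order, and 35410 fell in 13 lymphoid classes. Cells were clustered without any ribosomal gene, so the classes do not use the members, and classes were named by their markers, with 1 B cell cluster left as cluster 5. Between 67 and 89 cell barcodes were shared between pairs of captures. By Xist, R594C/R594C replicate 1 and WT replicates 1, 3 and 4 were male and the other 6 replicates female, which sets all 4 R594C/+ replicates as female. Ern1 itself was low, with medians of 2.56, 1.68 and 2.40 CPM (UMIs per 1000000 UMIs) in follicular-like B cells of the 3 genotypes in the same order. Ern1 passed the filter on low counts in only 3 classes, and in plasma cell-like cells its log2 difference was 0.26 ± 0.28 (SE, edgeR adjusted p = 0.874) for R594C/R594C minus WT. A 3′ count does not read a point mutation and so does not check the genotype.

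The members took 39724876 of the 169284420 UMIs of the kept cells. Of the 83 members, 78 had more than 1000 UMIs, led by Rps24, a small subunit protein gene, with 1597000 UMIs (4.02% of the members' sum). Counts were low for the copies that are known for restricted expression in other tissues. Rpl10l, a testis copy of Rpl10, had 1 UMI, Rpl3l, a striated muscle copy of Rpl3, had 45, Rpl32l had 111 and Rpl39l, a testis copy of Rpl39, had 174. These 4 did not pass the filter on low counts, so 79 members were tested between classes. Rps4l had 859 UMIs, Rpl6l had 1435 and Rps27l had 26426, in 31.0% of cells. Ribosomal protein genes have many processed pseudogenes, and how reads that match a gene and its copies were assigned is not given in the sources used here, so levels of 1 member against another are uncertain and only the same member is compared between samples.

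The ribosomal protein genes took very different shares of the UMIs in the 13 lymphoid classes, and the order was much the same in the 3 genotypes. The share was highest in CD8 T-like cells, at 35.0% ± 0.623 of UMIs (SD over 10 replicates), and was 32.1% ± 0.697 in memory-like CD8 T cells and 31.7% ± 1.61 in CD4 T-like cells. CD8 T-like cells lay above the other T cell classes by more than the spread between replicates, while memory-like CD8 T and CD4 T-like cells did not differ beyond theirs. Among B cells it was 29.1% ± 0.819 in marginal zone-like cells, 27.3% ± 0.556 in cluster 5, 25.4% ± 0.760 in B1-like cells and 24.6% ± 0.574 in follicular-like cells. Cluster 5 was led by Il4i1, Idi1, Hmgcs1 and Fcer2a and did not have the markers for a name. Germinal centre-like cells had 21.9% ± 0.580 and transitional-like cells 20.7% ± 0.658. The germinal centre-like cluster held all 8 cycling markers beside 6 of 7 germinal centre markers. Its differences from other classes thus cannot be assigned to cycling or to germinal centre identity. Clusters of cycling T cells and cycling plasma cells were left out of the classes. Activated CD4 T-like cells (20.5% ± 0.640), regulatory T-like cells (19.3% ± 1.04) and NK-like cells (17% ± 0.694) had lower shares than the other T cell classes. Plasma cell-like cells stood lowest with 5.76% ± 0.363, where immunoglobulin messages fill the library, and with immunoglobulin genes left out of the total they had 16% ± 0.709. The share is a description with no test, since it is a summed level over members chosen with earlier results known.

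Among the lymphoid classes the share did not follow the depth of the cells. Median UMIs per cell were 4067 in CD8 T-like cells, 2463 in follicular-like cells, 11208 in germinal centre-like cells and 17670 in plasma cell-like cells. Within the follicular-like class the 4 clusters had shares of 23.9%, 22.5%, 27.8% and 25.5%. Shallow clusters left out of the classes had low shares. A cluster with follicular B markers had a median of 783 UMIs and a share of 5.84%. Another with T cell markers had a median of 795 UMIs and a share of 5.47%. In bulk sums per class, less ribosomal protein RNA per cell and more RNA of other genes cannot be told apart.

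**Figure D1:**
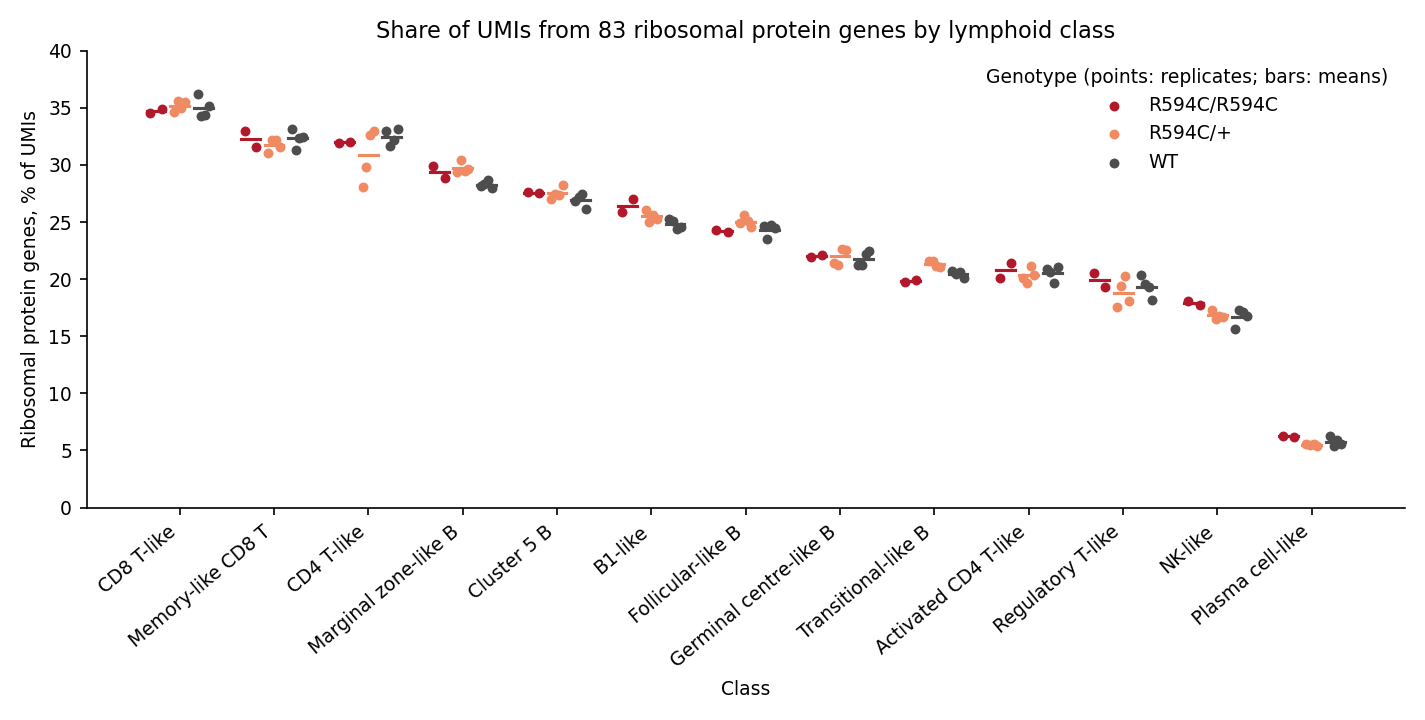
Share of UMIs from the 83 ribosomal protein genes (y axis, % of UMIs) in each lymphoid class (x axis), with 1 point per hashtag replicate and a bar at the mean of each genotype. CD8 T-like cells average 35.0% over all replicates and plasma cell-like cells 5.76%, and the genotypes differ far less than the classes.

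Between genotypes the shares lay close together. Marginal zone-like cells had 29.9% and 28.9% in the R594C/R594C replicates, 29.4%, 30.5%, 29.5% and 29.6% in the R594C/+ replicates and 28.1%, 28.3%, 28.7% and 28.0% in the WT replicates, so both mutant genotypes lay above every WT replicate. B1-like cells had 25.9% and 27.0% in R594C/R594C, 26.1%, 25%, 25.6% and 25.3% in R594C/+ and 25.3%, 25.1%, 24.4% and 24.5% in WT, where R594C/R594C lay above WT and R594C/+ overlapped it. In transitional-like cells R594C/R594C had 19.7% to 20.0%, R594C/+ 21.1% to 21.6% and WT 20.1% to 20.7%, so R594C/R594C lay below and R594C/+ above every WT replicate. NK-like cells had 17.8% to 18.1% in R594C/R594C, 16.5% to 17.3% in R594C/+ and 15.6% to 17.3% in WT, with R594C/R594C above the others. In cluster 5 R594C/R594C (27.5% to 27.6%) lay just above WT (26.1% to 27.5%), and R594C/+ (27.1% to 28.2%) overlapped both. In follicular-like cells they were 24.2%, 25% and 24.3% in the same order. CD4 T-like cells averaged 32% in R594C/R594C, 30.9% ± 2.35 in R594C/+ and 32.5% in WT, and the 2 low R594C/+ values, 28.1% and 29.8%, came from replicates with 48 and 103 cells. Over all lymphoid cells the share was 25.6% ± 0.898 in R594C/R594C, 23.5% ± 1.69 in R594C/+ and 24.8% ± 0.515 in WT, and these pooled values also carry the mix of classes in each replicate.

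Each class was then set against follicular-like B cells, gene by gene, with edgeR's quasi-likelihood test on UMIs summed per class and replicate, the replicate as a block and Benjamini-Hochberg adjustment over all 9474 genes tested. A member was called where the adjusted p was under 0.05 and the fold over 1.5. Of 948 pairs of member and class, 242 were called, 88 higher and 154 lower, against 33.3% of all genes and classes tested. The share of members called was thus below the share of all genes, and 75 members were called in at least 1 class. With library sizes taken as total UMIs in place of TMM factors, 51 pairs were higher and 122 lower. With no filter on low counts 70 were higher and 221 lower, in the WT capture alone 143 higher and 126 lower, and in the R594C/R594C capture alone 119 higher and 114 lower. Without R594C/R594C replicate 2 they were 117 higher and 133 lower, and without WT replicate 3 118 higher and 124 lower. Calls higher made up 36.4% of the 242, 29.5% with total UMIs and 35.7% with scaling on the genes outside the members. They made up 53.2% in the WT capture alone and 51.1% in the R594C/R594C capture alone. TMM factors were refitted with each set of samples, so samples and scaling were not separated here.

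The members moved together in direction more than in size. Without the limit on the fold, 77 of 79 members were higher and 2 lower in CD8 T-like cells (all genes 32.6% higher, 33.3% lower). In CD4 T-like cells 75 were higher and 2 lower (all genes 32.1% and 32.9%), and in memory-like CD8 T cells 75 were higher and 1 lower (33.2% and 33.1%). Among B cells, 74 were higher and none lower in marginal zone-like cells (23.4% and 21.9%), 60 were higher and 1 lower in cluster 5 (20.6% and 22.7%), and 31 were higher and 13 lower in B1-like cells (27.4% and 26.9%). The opposite direction prevailed in the other classes. Transitional-like cells had none higher and 77 lower (15.1% and 17.8%), activated CD4 T-like cells none higher and 74 lower (32.5% and 31.7%), regulatory T-like cells 1 higher and 77 lower (28.7% and 29.9%) and NK-like cells 1 higher and 76 lower (28.3% and 29.7%). Plasma cell-like cells had 5 higher and 70 lower (35.2% and 37.2%), and germinal centre-like cells 12 higher and 56 lower (35.9% and 35.2%). The member medians were log2 0.57 in CD8 T-like cells, 0.49 in memory-like CD8 T cells, 0.42 in CD4 T-like cells, 0.27 in marginal zone-like cells, -0.28 in germinal centre-like cells, -0.37 in transitional-like cells, -0.55 in plasma cell-like cells and -0.62 in NK-like cells, while the medians of all genes lay from -0.04 to 0. With the limit on the fold, 38 members were higher in CD8 T-like cells (18.4% of all genes) and 47 were lower in NK-like cells (19.6%). With total UMIs as library size these became 22 and 25, the lower members became 78 in place of 37 in plasma cell-like cells and 7 in place of 33 in regulatory T-like cells, and the higher members 7 in place of 16 in CD4 T-like cells. Marginal zone-like cells kept 2 of their 74, against 9.29% of all genes. These are many members that differ by a small amount in the same direction.

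To find which members moved apart from the rest, library sizes were set to the summed UMIs of the members, so that a difference of 0 means a member moved with the sum. That scaling moves the median of all genes by -0.64 in CD8 T-like cells to 0.59 in NK-like cells, and it is used for the members only. On it 35 of 948 pairs passed the same limits, 20 higher and 15 lower over 16 members, while 45.0% of all genes and classes passed them, since the genes outside the members keep the shift. None passed in marginal zone-like cells, transitional-like cells or cluster 5.

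**Figure D2:**
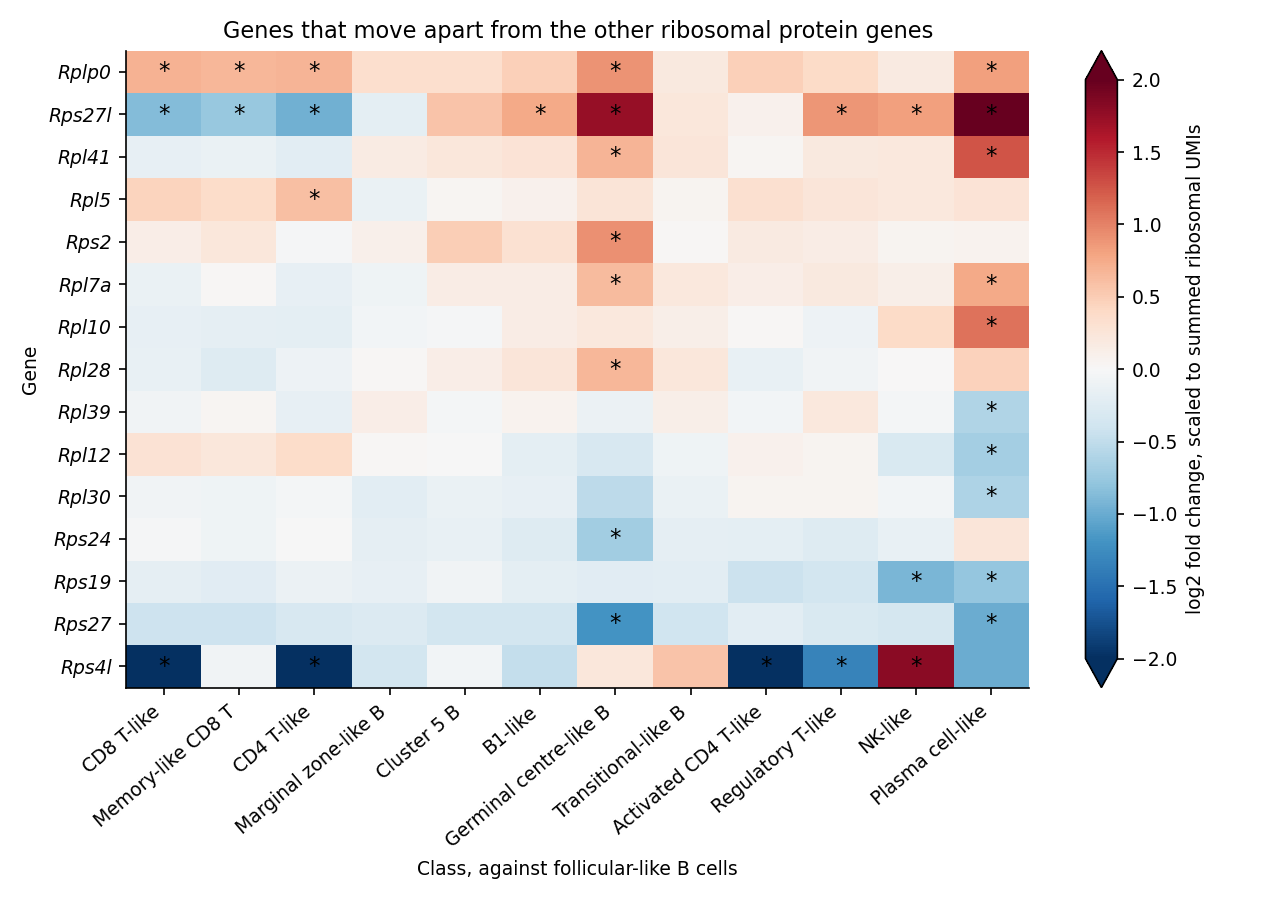
log2 fold change of each class minus follicular-like B cells (colour, library sizes set to summed ribosomal protein UMIs) for 15 of the 16 ribosomal protein genes called in at least 1 class. Asterisks mark adjusted p under 0.05 and fold over 1.5, and colours stop at 2 and -2. Germinal centre-like and plasma cell-like B cells hold most of the asterisks, and Rps27 and Rps27l differ in opposite directions there.

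The clearest departures were Rps27 and Rps27l. Rps27 encodes a zinc finger protein of the small subunit, and Rps27l a close paralog that is known as a p53 target. Rps27 made up 10.2 ± 0.67 UMIs per 1000 member UMIs in plasma cell-like cells and 8.98 ± 0.59 in germinal centre-like cells, against 20.5 ± 1.2 in follicular-like cells (SD, n = 10 each), and the ranges, 9.20 to 11.4 and 8.37 to 10.2 against 19.2 to 23.2, did not overlap. Rps27l made up 3.76 ± 0.55 in plasma cell-like cells and 1.39 ± 0.10 in germinal centre-like cells, against 0.416 ± 0.047 in follicular-like cells. Relative to the member sum, Rps27l was higher by log2 3.17 ± 0.07 in plasma cell-like cells (SE, edgeR adjusted p = 3.0e-102) and 1.74 ± 0.07 in germinal centre-like cells (adjusted p = 1.1e-57), and Rps27 was lower by -1.0 ± 0.04 (adjusted p = 5.6e-65) and -1.19 ± 0.04 (adjusted p = 5.4e-76) in the same classes. Scaled to all genes, Rps27 also fell, by 1.55 on the log2 scale in plasma cell-like cells and 1.53 in germinal centre-like cells, and Rps27l rose by 2.62 and 1.41. Rps27 was lower than the member sum in all 12 classes by adjusted p, and on the scale of all genes it was not called different in marginal zone-like cells, where the log2 difference was 0.03 (adjusted p = 0.542).

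The pair also differed in T and NK cells. Rps27l was higher than the member sum in regulatory T-like cells (log2 0.88 ± 0.09), NK-like cells (0.82 ± 0.09) and B1-like cells (0.76 ± 0.07). It was lower in CD4 T-like cells (-0.96 ± 0.08), CD8 T-like cells (-0.87 ± 0.08) and memory-like CD8 T cells (-0.76 ± 0.08). Scaled to all genes, NK-like cells were not called for it, with 0.19 (adjusted p = 0.0559). In regulatory T-like cells no member was called higher on that scale. The highest log2 difference of any member there was 0.31, below the limit on the fold. As a percentage of the UMIs of both genes, Rps27l was 26.8 ± 3.79 in plasma cell-like cells and 13.5 ± 1.17 in germinal centre-like cells, against 1.99 ± 0.22 in follicular-like cells and 1.33 in CD4 T-like cells. The plasma cell-like values were 22.5 and 19.3 in R594C/R594C, 30.6, 28.3, 26.3 and 27.3 in R594C/+ and 24.5, 28.4, 30.8 and 30.4 in WT, and both R594C/R594C replicates lay below every other replicate. That genotype difference is a description with no test. Erythroid messages in plasma cell-like cells summed to 4726 and 7734 CPM in R594C/R594C, 44.3 to 2797 (median 52.8) in R594C/+ and 3.82 to 18.2 in WT, so the R594C/R594C replicates lay above every other replicate, and their part in the Rps27l percentage was not tested.

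**Figure D3:**
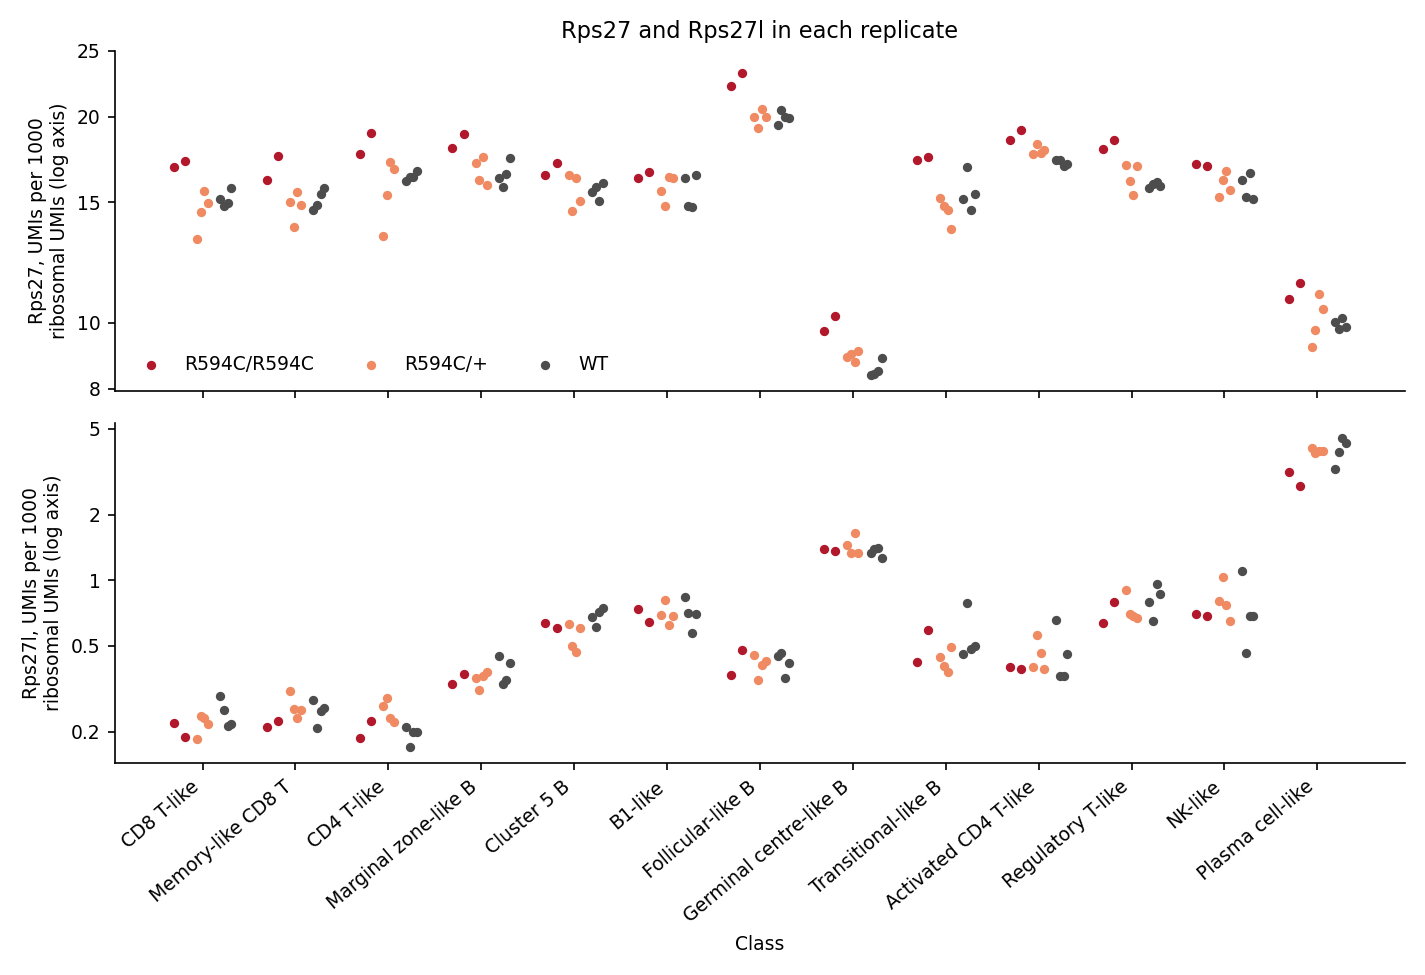
Rps27 (upper panel) and Rps27l (lower panel) in UMIs per 1000 ribosomal protein UMIs on log axes, with 1 point per hashtag replicate, by class (x axis) and genotype (colour). Rps27 lies at 8.37 to 11.4 in germinal centre-like and plasma cell-like cells and at 19.2 to 23.2 in follicular-like cells, and Rps27l lies at 2.73 to 4.52 in plasma cell-like cells.

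Among the P-stalk genes, Rplp0 was higher than the member sum in all 12 classes and was called in 5. It made up 19 ± 0.80 per 1000 in germinal centre-like cells, 18.1 ± 0.93 in plasma cell-like cells and 16.6 ± 0.69 in CD8 T-like cells, against 10.3 ± 0.30 in follicular-like cells. Its log2 differences were 0.89 in germinal centre-like, 0.82 in plasma cell-like, 0.70 in CD8 T-like, 0.68 in CD4 T-like and 0.66 in memory-like CD8 T cells (SE 0.04 each). Scaled to all genes, Rplp0 was 1.32 higher in CD8 T-like cells and 0.46 lower on the log2 scale in NK-like cells, and the difference was 0.06 in activated CD4 T-like cells. Rplp1, the partner that forms dimers with Rplp2 on the stalk, made up 32.2 ± 1.0 per 1000 in CD8 T-like cells against 22.7 ± 0.27 in follicular-like cells and was among the 6 highest members in 7 classes. Rplp2 made up 15 in CD8 T-like cells and 11.2 in plasma cell-like cells, against 13.4 in follicular-like cells.

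Other large subunit genes were set apart mainly in plasma cell-like and germinal centre-like cells. Rpl41, which encodes the smallest ribosomal protein, made up 25.5 ± 0.89 per 1000 in plasma cell-like cells and 17.1 ± 0.53 in germinal centre-like cells, against 10.7 ± 0.36 in follicular-like cells, a log2 difference of 1.25 and 0.68. Rpl10, which joins the large subunit late in its assembly, made up 24.8 ± 0.62 in plasma cell-like cells against 11.6 ± 0.40 in follicular-like cells (log2 1.09 ± 0.03). Rpl7a was 0.75 higher in plasma cell-like and 0.63 higher in germinal centre-like cells. Rpl28 was 0.66 higher in germinal centre-like cells and Rpl5, which binds 5S ribosomal RNA, was 0.61 higher in CD4 T-like cells. Rpl12, Rpl30 and Rpl39 fell by 0.68, 0.62 and 0.59 on the log2 scale in plasma cell-like cells. The Rpl39 call was lost in 4 of 17 alternatives, namely in the R594C/R594C or WT capture alone and without R594C/+ replicate 2 or WT replicate 3.

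Of the small subunit genes, Rps2 made up 23.5 ± 1.1 per 1000 in germinal centre-like cells against 12.5 ± 0.34 in follicular-like cells (log2 0.91). Rps24 made up 27.3 ± 1.2 in germinal centre-like cells against 44.2 ± 0.62 in follicular-like cells (log2 -0.70). In plasma cell-like cells Rps24 made up 52.1 ± 2.6, so the germinal centre-like and plasma cell-like cells differed in opposite directions from follicular-like cells. Rps19, a small subunit gene known for its mutations in human Diamond-Blackfan anaemia, made up 7.70 ± 0.54 in NK-like cells and 8.45 ± 0.54 in plasma cell-like cells, against 14.5 ± 0.78 in follicular-like cells (log2 -0.91 and -0.78). Rps4l had few UMIs, summed over classes of unlike size. There were 1 in activated CD4 T-like, 4 in CD4 T-like, 14 in CD8 T-like, 6 in regulatory T-like and 51 in NK-like cells. Follicular-like cells had 191. Relative to the member sum Rps4l was higher in NK-like cells (log2 1.81 ± 0.32). It was lower in activated CD4 T-like (-4.19), CD4 T-like (-4.01), CD8 T-like (-2.78) and regulatory T-like cells (-1.33). These called differences rest on small counts. The regulatory T-like one passed in 8 of 15 alternatives.

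Genes that work beside the ribosome were described over the same classes. These genes took part in the clustering, so their differences between classes are given with no test. The median log2 difference of 20 translation factors and other messages with a pyrimidine tract was 0.58 in CD8 T-like cells, 0.52 in memory-like CD8 T cells, -0.27 in plasma cell-like cells and -0.30 in NK-like cells. The 20 ribosome assembly and nucleolus genes had medians of 1.14 in cluster 5, 0.96 in germinal centre-like cells and -0.34 in plasma cell-like cells. Nhp2, a small nucleolar RNA protein gene, was 1.58 and Npm1, a nucleolar chaperone gene, was 1.22 higher in cluster 5. The mitochondrial ribosomal protein genes had medians of 0.83 in germinal centre-like and 0.72 in plasma cell-like cells, where the cytosolic members had -0.28 and -0.55. Fau, whose product includes a small subunit protein and which the symbol rule does not take, was -0.90 in germinal centre-like, -1.21 in plasma cell-like and -0.92 in NK-like cells.

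Between the genotypes few pairs of member and class passed, though a larger share than over all genes. In R594C/R594C minus WT, 18 of 1011 pairs of member and class were called by edgeR at an adjusted p under 0.05, all 18 higher, over 9 members in 4 classes, against 0.119% of all genes and classes tested (0.0727% higher and 0.0464% lower). In R594C/+ minus WT, 34 pairs were called, 30 higher and 4 lower, over 29 members in 6 classes. Of all genes and classes 0.215% were called (0.177% higher and 0.0384% lower). In R594C/R594C minus R594C/+, 7 pairs were called, 3 higher and 4 lower, over 5 members in 4 classes, against 0.140% (0.0293% higher and 0.111% lower). An unadjusted p under 0.05 was found in 194, 201 and 169 pairs in the same order, which is 19.2%, 19.9% and 16.7% of the member pairs, against 5.50%, 5.90% and 6.25% over all genes and classes. The 2 contrasts with WT share the WT replicates, and all classes of a replicate share its capture. Counts depend on single replicates, since leaving out 1 replicate gave 8 pairs (R594C/R594C replicate 1), 7 pairs (R594C/R594C replicate 2) or 11 pairs (WT replicate 4) in place of 18. The 34 pairs became 18 or 16 without R594C/+ replicate 2 or 4, and 16 or 20 without WT replicate 1 or 4. They became 20 with total UMIs as library size (12 higher and 8 lower), 12 with expressed sex as a term (all higher) and 8 with DESeq2. In place of the 7 pairs, leaving out R594C/R594C replicate 1 gave 0, leaving out R594C/R594C replicate 2 gave 1, and leaving out R594C/+ replicates 1, 2, 3 and 4 gave 2, 3, 2 and 4. They became 12 without WT replicate 2, 3 without WT replicate 3 and 0 with DESeq2, and with expressed sex as a term 12 pairs, all lower.

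RNA of other cell types differed between the captures beside these results. The summed erythroid messages in follicular-like cells were 250 to 259.5 CPM in R594C/R594C, 230 to 256.9 in R594C/+ and 76.7 to 96.5 in WT. The summed neutrophil messages there were 89.4 to 96.1 in R594C/R594C, 172.6 to 203.5 in R594C/+ and 32.6 to 62.0 in WT. Immunoglobulin and B cell messages in CD4 T-like cells were 1386 to 1414, 2539 to 2893 and 1701 to 2650 in the same order. In marginal zone-like cells the erythroid sum was 123.5 to 130.7 CPM in R594C/R594C, 130.6 to 137.7 in R594C/+ and 26.2 to 61.6 in WT, and the neutrophil sum 37.3 to 50.2, 101.6 to 123.1 and 13.3 to 29.6 in the same order. Both mutant captures held more erythroid RNA than WT in follicular-like and marginal zone-like cells. Of 49 erythroid pairs of gene and class, 24 were called higher in R594C/R594C minus WT and 32 in R594C/+ minus WT, and of 42 neutrophil pairs 5 and 32. The part of this RNA in the member differences was not tested.

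R594C/R594C marginal zone-like cells had 9 of 79 members higher than WT, against 0.179% of all genes in that class. They were Rps28, Rps29, Rpl38, Rpl39, Rps21, Rps27, Rpl35, Rpl37 and Rpl37a, several of which encode some of the smallest ribosomal proteins. Rps28 had 2827 and 2749 CPM in R594C/R594C, 2459, 2501, 2288 and 2414 in R594C/+ and 2149, 2065, 2243 and 2271 in WT. The groups did not overlap, with R594C/R594C above R594C/+ and R594C/+ above WT. The log2 difference of R594C/R594C minus WT was 0.39 ± 0.05 (edgeR adjusted p = 8e-06).

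Rps29, which with Rps28 encodes a small protein of the small subunit, had 5976 and 5792 CPM in R594C/R594C, 5159.9, 5146, 5110.4 and 5051 in R594C/+ and 4917, 4573, 4769 and 4879.7 in WT (log2 0.34 ± 0.04 for R594C/R594C minus WT, edgeR adjusted p = 1e-06). Rpl38 of the large subunit had 2372 and 2228 in R594C/R594C, 2079, 2197, 2156 and 2117 in R594C/+ and 1829, 1892, 1847 and 1863 in WT (log2 0.35 ± 0.05, adjusted p = 0.000111). Neither gene's R594C/R594C replicates overlapped the other genotypes. Rps21 was 0.27 ± 0.04 higher (adjusted p = 0.000252), Rpl39 0.27 ± 0.04 (adjusted p = 0.000186) and Rps27 0.26 ± 0.04 (adjusted p = 0.000714). Rps28, Rps29, Rpl38, Rpl39 and Rps21 passed under all 18 alternatives in this class, Rps27 under 17, Rpl35 under 15, Rpl37 under 12 and Rpl37a under 5.

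In the other classes the same genes led. Rpl38 was 0.25 ± 0.05 higher in follicular-like cells (edgeR adjusted p = 0.0233) and 0.28 ± 0.06 in cluster 5 (adjusted p = 0.0330). Rps29 was 0.21 ± 0.04 higher in follicular-like cells, where it had 5358 and 5384 CPM in R594C/R594C and 4635, 4456, 4739 and 4753 in WT, and 0.27 ± 0.05 in cluster 5. Rps28 was 0.40 ± 0.08 higher in B1-like cells (adjusted p = 0.0121), which had 2384 and 2609 CPM in R594C/R594C and 1974, 1897, 1833 and 1955 in WT. All 9 genes had differences above 0 in 13 of 13 classes. They were chosen by their calls in this contrast, and the classes share the same replicates, so the classes are not independent observations. The same holds for the counts over 13 classes given below. The calls in these other classes rest on single replicates in part. Rps28 in B1-like cells lost its call without R594C/R594C replicate 2, as did Rps29 in cluster 5. Rps29 in follicular-like cells lost it without either R594C/R594C replicate, and so did Rpl38, which also lost it without WT replicate 1. Rpl38 in cluster 5 lost it without either R594C/R594C replicate, R594C/+ replicate 3 or WT replicate 4.

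On the scale of the member sum, 18 pairs were called in R594C/R594C minus WT, 17 higher and 1 lower over 6 members, against 0.142% of all genes (0.0565% higher and 0.0858% lower). Rps29 passed in 5 classes, with log2 differences of 0.22 to 0.24, and Rpl38 in 5, with 0.24 to 0.27. In CD8 T-like cells Rps29 made up 21.4 and 21.4 UMIs per 1000 in R594C/R594C, 18.6, 17, 19 and 17.8 in R594C/+ and 18, 17.7, 18.5 and 18.7 in WT. The R594C/R594C values lay above all others, and R594C/+ overlapped WT. Rpl5 was the lower member, by -0.23 ± 0.05 in marginal zone-like cells (adjusted p = 0.0292). The 18 pairs became 3 without either R594C/R594C replicate, 4 with DESeq2 and 0 with no filter on low counts.

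**Figure D4:**
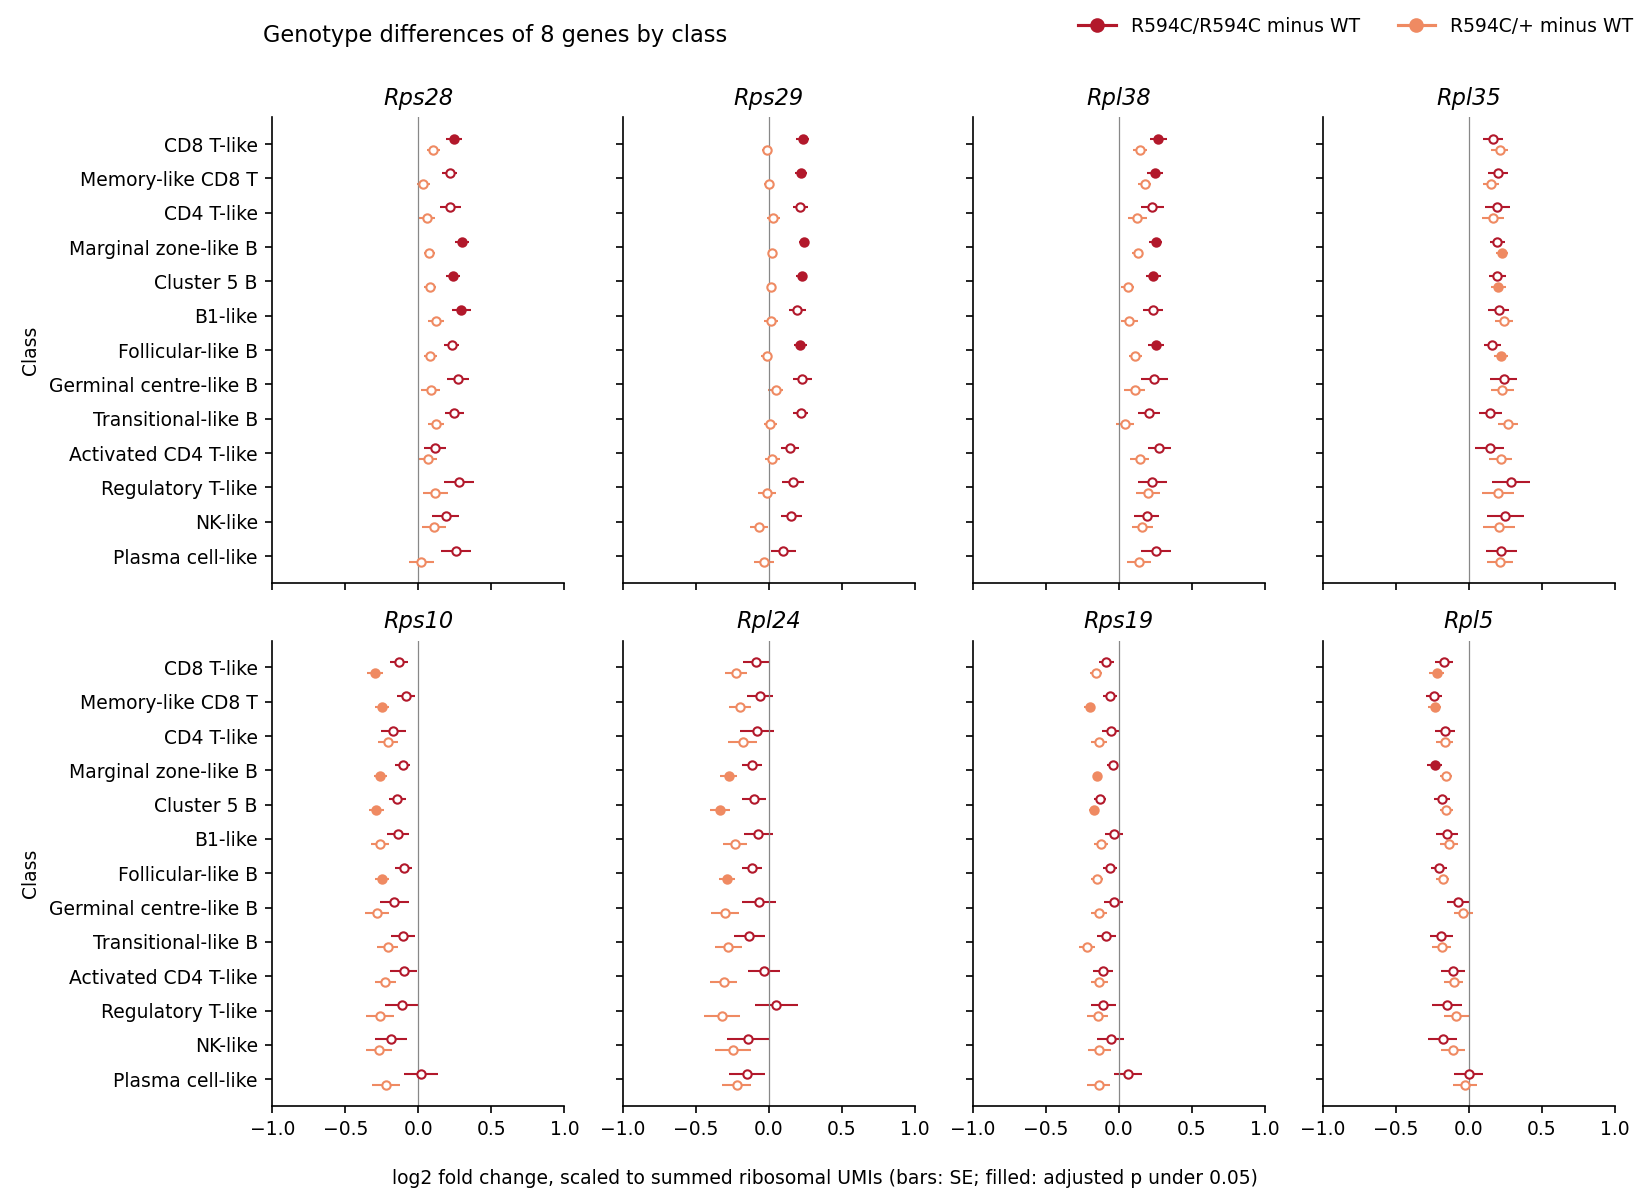
log2 differences of 8 ribosomal protein genes on the scale of summed ribosomal protein UMIs (x axis) in each lymphoid class (y axis), R594C/R594C minus WT in dark red above R594C/+ minus WT in orange. Bars are standard errors and filled points have an adjusted p under 0.05. Rps28, Rps29 and Rpl38 lie above 0 in R594C/R594C minus WT and Rps10 lies below 0 in R594C/+ minus WT in all 13 classes.

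R594C/+ marginal zone-like cells had 26 of 79 members higher than WT, against 0.470% of all genes called higher in that class. The size of these differences was small, from log2 0.12 to 0.35, and most passed in fewer than 16 of the 18 alternatives. Rpl35, a large subunit gene at the peptide exit, had 1527, 1601, 1497 and 1495 CPM in R594C/+ and 1254, 1218, 1278 and 1217 in WT (log2 0.35 ± 0.05, edgeR adjusted p = 1.8e-05), with no overlap. In transitional-like cells it had 1273, 1307, 1120.3 and 1215 in R594C/+ and 959.6, 945, 1005 and 1001 in WT (0.36 ± 0.07, adjusted p = 0.00738). It was also higher in follicular-like cells by 0.28 ± 0.05 (adjusted p = 0.000411) and in cluster 5 by 0.26 ± 0.06 (adjusted p = 0.0191), and lay above 0 in 13 of 13 classes. The call in transitional-like cells was lost without R594C/+ replicate 1 or 2, and that in cluster 5 without R594C/+ replicate 2 or 4 or WT replicate 4. Rpl27a was 0.25 ± 0.05 higher, Rpl38 0.25 ± 0.04, Rpl36 0.23 ± 0.04 and Rps21 0.22 ± 0.04 in marginal zone-like cells. Rpl35, Rpl38, Rps21 and Rpl27a passed there under all 18 alternatives.

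The lower members in R594C/+ lay in CD8 T cells. Rps10, a small subunit gene near the messenger RNA entry, had 1557, 1609.5, 1557 and 1458 CPM in memory-like CD8 T cells of R594C/+ and 1918, 1738, 1927 and 1892 in WT (log2 -0.29 ± 0.06, edgeR adjusted p = 0.00310), with no overlap. Rpl5 (-0.27 ± 0.05) and Rps19 (-0.24 ± 0.05) were also lower there, and Rps10 was lower in CD8 T-like cells (-0.29 ± 0.07, adjusted p = 0.0246). With expressed sex as a term all 4 of these lost their call. Rps10 in memory-like CD8 T cells also lost it without R594C/+ replicate 4, Rps19 without R594C/+ replicate 1, WT replicate 1 or WT replicate 4, and Rps10 in CD8 T-like cells without 8 of the 10 replicates in turn.

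On the scale of the member sum, 17 pairs were called in R594C/+ minus WT, 3 higher and 14 lower, against 0.224% of all genes (0.131% higher and 0.0929% lower). Rps10 was lower in 5 classes and below 0 in 13 of 13. In follicular-like cells it made up 4.83, 4.92, 4.92 and 5.02 per 1000 in R594C/+ and 5.96, 5.62, 5.75 and 6.07 in WT (log2 -0.25 ± 0.05, adjusted p = 0.00490). In marginal zone-like cells it made up 4.48, 4.59, 4.33 and 4.49 in R594C/+ and 5.21, 5.34, 5.37 and 5.51 in WT (-0.26 ± 0.04, adjusted p = 0.000428). These 2 passed under all 16 alternatives. Rpl24, a large subunit gene, was lower by -0.33 ± 0.07 in cluster 5, -0.29 ± 0.06 in follicular-like cells and -0.27 ± 0.06 in marginal zone-like cells. Rpl35 was 0.20 to 0.23 higher in 3 classes. On this scale the all-gene median moved by up to -0.116 in marginal zone-like cells of R594C/+ minus WT. The 17 pairs became 6 with expressed sex as a term, 5 with no filter and 11 with DESeq2.

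**Figure D5:**
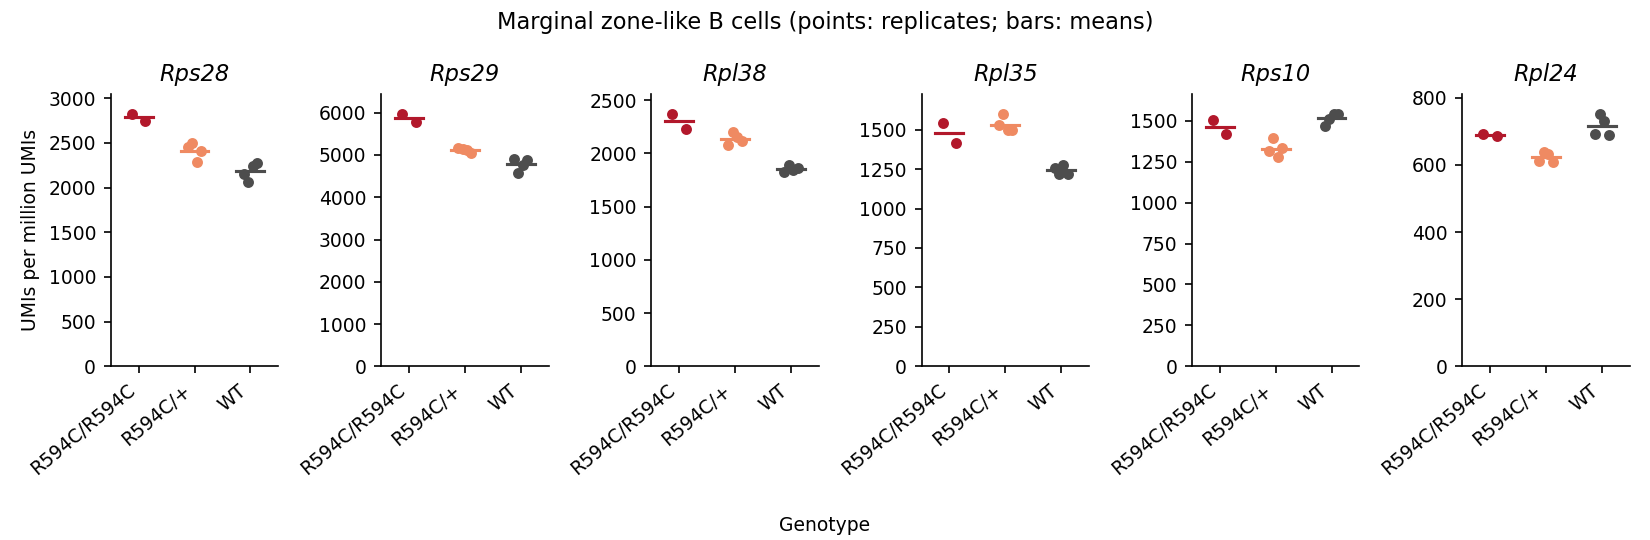
CPM, UMIs per 1000000 (y axis from 0), of 6 ribosomal protein genes in marginal zone-like B cells, 1 point per hashtag replicate with a bar at the mean, by genotype (x axis). Rps28, Rps29 and Rpl38 are highest in R594C/R594C, Rpl35 is higher in both mutant genotypes than in WT, and Rps10 and Rpl24 are lowest in R594C/+.

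Between the mutant genotypes, Rps29 was higher in R594C/R594C than in R594C/+ in memory-like CD8 T cells (log2 0.26 ± 0.05, edgeR adjusted p = 0.00887), marginal zone-like cells (0.20 ± 0.04, adjusted p = 0.0176) and follicular-like cells (0.16 ± 0.04, adjusted p = 0.0481). In memory-like CD8 T cells it had 6570.1 and 6283 CPM in R594C/R594C and 5113, 5469.7, 5699 and 5374 in R594C/+, with no overlap. Rpl12 was lower in follicular-like cells (-0.18 ± 0.04, adjusted p = 0.0179), with 5211 and 5397 in R594C/R594C and 5805, 5968, 5926 and 5908 in R594C/+, and so was Rps9 (-0.18 ± 0.04). The Rpl12 call was lost without either R594C/R594C replicate or R594C/+ replicate 3. Rps2 (-0.32 ± 0.07) and Rpsa, the laminin receptor-related small subunit gene (-0.27 ± 0.06), were lower in transitional-like cells. The Rps9, Rps2 and Rpsa calls and those of Rps29 in B cells each passed in at most 9 of 18 alternatives, and Rps29 in memory-like CD8 T cells in 13. On the scale of the member sum 8 pairs were called, all higher, against 0.133% of all genes (0.0454% higher and 0.0878% lower). They were Rps29 in 5 classes, Rps27 in 2 and Rps28 in 1, and they became 2 without either R594C/R594C replicate, 5 without R594C/+ replicate 2, 2 with DESeq2 and 0 with no filter.

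A difference of the genotype effect between marginal zone-like and follicular-like cells was tested as an interaction. No member was called in any of the 3 contrasts (edgeR; 36, 12 and 4 of 79 members had an unadjusted p under 0.05 in R594C/R594C minus WT, R594C/+ minus WT and R594C/R594C minus R594C/+), and the lowest adjusted p were 0.438 for Rps12, 0.668 for Rps27a and 0.394 for Rplp0. Of all 9938 genes, 4, 1 and 1 were called (0.0402%, 0.0101% and 0.0101%), and 5.80%, 5.47% and 5.67% had an unadjusted p under 0.05. The difference of effects was above 0, towards marginal zone-like cells, for 76, 73 and 71 of the 79 members. The members thus lay mostly on one side, while for no single member did the difference between the classes pass the adjustment.

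Among the neighbouring genes, none of 248 pairs of ribosome assembly genes or 949 pairs of mitochondrial ribosomal protein genes was called by edgeR in any contrast, with an unadjusted p under 0.05 in 10, 18 and 15 of the assembly pairs and 24, 43 and 40 of the mitochondrial pairs in R594C/R594C minus WT, R594C/+ minus WT and R594C/R594C minus R594C/+. Translation factors and other messages with a pyrimidine tract did have calls. Of 260 pairs, 8 were higher in R594C/+ minus WT, against 0.177% of all genes and classes. In R594C/R594C minus R594C/+ 4 were lower, against 0.111%, and in R594C/R594C minus WT 0 were called. An unadjusted edgeR p under 0.05 was found in 38, 38 and 19 of these pairs in that order. Of the mitochondrially encoded messages, mt-Atp6 was lower in R594C/+ than WT in follicular-like cells (-0.68), marginal zone-like cells (-0.55) and cluster 5 (-0.68). The list medians in these classes were -0.27, -0.30 and -0.22, with 2 of 12, 2 of 11 and 1 of 11 messages above 0. In R594C/R594C minus R594C/+ mt-Atp6 was higher in follicular-like cells (0.55) and marginal zone-like cells (0.67), and in R594C/R594C minus WT mt-Co1 was higher in plasma cell-like cells (0.59). The summed list in marginal zone-like cells was 17560 to 18694 CPM in R594C/R594C, 11416 to 16344 in R594C/+ and 16484 to 17472 in WT, where the R594C/+ replicates lay below all others. Its part in the member differences of the same classes was not tested.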

How the data were processed

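The deposited files hold the authors' raw UMI counts, for genes and for antibody and hashtag tags, from Cell Ranger 5.0.0 per the file headers. Cell Ranger, STAR, Seurat 3.1.4 and mm10 are named in the submitters' processing notes, with no role or order. The antibody counts were not used here. The members, gene lists and tests were chosen with earlier results of these data known.

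A barcode needed 200 genes or more and a mitochondrial share of 10% or less. HTODemux (Seurat 5.3.0, quantile 0.99) assigned 15502, 15462 and 12676 cells to 1 hashtag in R594C/R594C, R594C/+ and WT. It marked 1543, 1977 and 1301 barcodes as mixed and left 186, 329 and 1835 without a hashtag. To reduce doublets within a hashtag, each cell was scored by the share of simulated doublets among its nearest neighbours. The cells with the highest scores were removed, up to the number of such doublets expected. That removed 1548, 688 and 435 cells in the same order. Of the known doublets, 68.2%, 55.4% and 49.6% reached the lowest score removed, so some doublets remained. Cells were clustered without 403 ribosomal-named genes (2000 variable genes, 30 principal components, 20 neighbours, leidenalg 0.10.2 at resolution 1.5), which gave 38 clusters. A cluster was named "X-like" from fixed markers.

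UMI counts were summed per class and replicate with at least 10 cells and tested with edgeR 4.0.16 (robust quasi-likelihood, TMM factors, filterByExpr, R 4.3.3) over all genes, with Benjamini-Hochberg adjustment. In a second fit the library size was the summed UMIs of the members. Class contrasts had the replicate as a block and a fold limit of 1.5. DESeq2 1.42.0 was an alternative, and the others were no filter on low counts, other scalings, expressed sex as a term, a hashtag margin of 4, clusters with ribosomal genes and leaving out each replicate. The scripts were tested on simulated data, with changed genes drawn from all genes. For R594C/R594C minus WT, 7.14%, 2.78% and 0% of 1.2-fold changes were recovered in follicular-like, marginal zone-like and germinal centre-like cells. Of 2-fold changes 74.6%, 61.4% and 28.6% were recovered, with 14, 3 and 1 false calls in these runs. Most members are more abundant than most genes, so these percentages need not hold for them. A member that was not called between genotypes is still not shown to be unchanged. Members named were those called in a genotype contrast on either scale (at most 8 per direction, class and contrast), the 6 highest and 6 lowest in each class contrast on the scale of the member sum, and duplicate copies, and other genes came from fixed lists (the 4 lowest p per contrast). Some results for single genes are not reported here.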

Additional observations from a re-analysis of the deposited data

Results flagged for a closer look

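In 4 of 132 groups of 4 replicates tested for members, 1 replicate lay far from the other 3 by Dixon's test, and chance flags about 1 in 20 such groups. Rpl38 in follicular-like cells was low in R594C/+ replicate 4, with 1867 CPM. Rps28 in B1-like cells was low in R594C/+ replicate 2, with 1997 CPM. Rpl13 in marginal zone-like cells was high in R594C/+ replicate 2, with 6965 CPM, and Rps24 there was low in WT replicate 1, with 10499.6 CPM. None of 26 groups of the ribosomal share was set apart.

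The R594C/R594C capture held 951 UMIs of hashtags that the labels do not assign to it, against 146 in the R594C/+ capture and 143 in the WT capture. These hashtags were not used to assign cells.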

How the results depend on the processing

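Of 137 results for single genes, 1756 of 2335 alternative values kept the direction and the side of the threshold, 579 lost the threshold and 0 reversed. The 18 pairs called in R594C/R594C minus WT became 10 with the replicate number as a block and 7 to 22 with each replicate left out. The 34 pairs of R594C/+ minus WT became 8 with DESeq2, 12 with no filter on low counts, 20 with total UMI scaling, 12 with expressed sex in the fit, 18 with the replicate block and 16 to 35 with each replicate left out. The 7 pairs of R594C/R594C minus R594C/+ became 0 with DESeq2, 0 with no filter, 4 with scaling on non-member genes, 12 with expressed sex in the fit, 4 with a hashtag margin, 13 with clusters made with ribosomal genes and 0 to 12 with each replicate left out. On the scale of the member sum the counts became 4 with DESeq2 and 0 with no filter (main 18, 3 to 24 with each replicate left out) in R594C/R594C minus WT. They became 11, 5 and 6 with DESeq2, no filter and expressed sex (main 17, 13 to 19) in R594C/+ minus WT, and 2 and 0 with DESeq2 and no filter (main 8, 2 to 10) in R594C/R594C minus R594C/+. The class counts of 242 and 35 became 234 to 250 and 34 to 37 with each replicate left out. The ribosomal share over all lymphoid cells was 24.4% and became 26.5% without immunoglobulin genes, that of plasma cell-like cells became 16% without them and that of CD8 T-like cells 35.7% without mitochondrial genes, while transitional-like cells had 19.9% with clusters made with ribosomal genes. For these changes the cause was not tested. Replicate numbers were not shown to pair the samples: deviations from the group mean in follicular-like cells correlated at 0.18, -0.12, -0.01 and 0.03 for replicates 1 to 4 between R594C/+ and WT. Between R594C/R594C and WT they correlated at 0.17 and 0.52 there, 0.06 and 0.35 in marginal zone-like cells and 0.05 and 0.31 in CD4 T-like cells for replicates 1 and 2, which leaves too few pairs to show pairing. By Xist, replicate 2 was the only female in each of these groups, and the part of sex in these values was not tested. Precision is limited by 2 R594C/R594C replicates and by few cells, since R594C/+ replicate 1 had 23 CD8 T-like cells and germinal centre-like cells numbered 15 to 54 per replicate.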
